A study of Mus musculus with 8 samples.

Results

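Fatty acid oxidation was followed in mouse liver through a list of 34 genes chosen by their known role, 21 of them for mitochondrial oxidation, the ketone body step and fuel choice and 13 for the peroxisomal steps. All 34 were found by symbol among the 22013 genes of the count table, 1 row each, and all 34 passed the filter on low counts that kept 12207 genes. The libraries were 4 labelled Rem, from livers of mice on a diet of fructose, palmitate and cholesterol (FPC) for 12 weeks that received Resmetirom intraperitoneally at 5 mg/kg/day, begun after 4 weeks of the diet and kept up for 8 weeks, and 4 labelled crtl, named control here. The drug was given in 0.5% CMC-Na with 0.4% Tween-80. The series' design text gives diet and dosing without saying what the control mice ate or were injected with, and no source used here gives strain, sex or age, so drug, diet and vehicle cannot be told apart. Resmetirom activates thyroid hormone receptor beta, the main form in hepatocytes, and the diet is used to model metabolic dysfunction-associated steatohepatitis.

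In hepatocytes, long fatty acids are activated to acyl-CoA, carried into mitochondria as carnitine esters and shortened by repeated rounds of a 4-step cycle, the beta-oxidation spiral, whose electrons pass through the electron transfer flavoprotein to the respiratory chain. The acetyl-CoA that results is burned or made into ketone bodies for other organs. Peroxisomes run a parallel spiral on very long, branched and dicarboxylic chains, and hand the shortened products on as carnitine or free acids. Many of these genes are known targets of the nuclear receptor PPARalpha, and Cpt1a is also known as a target of thyroid hormone.

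With resmetirom, 3 of the 34 genes rose (Cpt1a, Bdh1 and Abcd3) and 1 fell (Acsl1). The test was edgeR's quasi-likelihood test with trimmed mean of M-values (TMM) scaling, and a gene counted as changed at a Benjamini-Hochberg adjusted p under 0.05 over all genes tested. Among all 12207 genes, 2.6% were called higher and 1.99% lower, against 8.82% and 2.94% of the members, and with 34 members these shares rest on 3 genes and 1 gene. The median log2 fold change (resmetirom minus control) was 0.16 over the 34 members and -0.0043 over all genes tested. Levels are given as CPM, counts scaled to a common library size corrected by the TMM factors, unless TPM, which also correct for gene length, are named.

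The direction of the group as a whole depended on the scale of the libraries. The 20 most abundant genes took 27.4% of the counts in resmetirom replicate 1, 35.3% to 38.7% in the other resmetirom libraries and 23.4% to 24.5% in the control libraries. The TMM factors were 1.06 in resmetirom replicate 1, 0.804 to 0.879 in the other resmetirom libraries and 1.08 to 1.16 in the control libraries. When library sizes alone set the scale, the member median was -0.15 against -0.31 for all genes, and in log2(TPM + 1) it was -0.35 against -0.41. The median of the 34 members therefore lay above that of all genes on each of the 3 scales, while its sign turned. The median of the 13 peroxisomal members did not lie above that of all genes in log2(TPM + 1), at -0.41 for both. The calls moved with the scale. Library sizes alone gave 0 members higher and 5 lower, where 1.24% and 16.1% of all genes were called. The log2(TPM + 1) values gave 0 and 12 members, where 1.01% and 38.1% of all genes were called. DESeq2, which corrects for composition as TMM does, gave 8 and 1 members, where 4.36% and 3.37% of all genes were called. In the authors' deposited table, whose log2 fold change is the ratio of the group means of TPM, 0 members were higher and 18 lower at an adjusted p under 0.05. That table calls 0.863% of its genes higher and 23.6% lower, or 1.41% and 42.1% of the genes tested here. Acsl1 was the only member called in the same direction by edgeR under TMM, by edgeR without it, from log2(TPM + 1) values and in the authors' deposited table.

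Before averaging, the libraries were compared: total counts were 16787561 to 19887539, and no pair within a group was alike within sampling noise. Resmetirom replicate 1 stood apart from its group, by the shares and factors above and by its counts: the chi-square per degree of freedom was 91.8 to 196 between it and the other resmetirom libraries, 24.3 to 50.1 among those, and 13.2 to 60.2 among the control libraries. Without it the same 4 members were called, Cpt1a at 0.56 (adjusted p = 0.0246), Bdh1 at 0.46 (adjusted p = 0.0281), Abcd3 at 0.66 (adjusted p = 0.0058) and Acsl1 at -0.52 (adjusted p = 0.0294). Nothing in the labels ties each library to its own animal, so a p-value reflects only the variation among these 8 libraries, which may be technical. The hepatocyte markers summed to 84833 to 93225 CPM with resmetirom and 68101 to 75532 CPM in control. Alb made up most of that sum, with means of 73186 CPM and 58272 CPM, and was not called (0.33, adjusted p = 0.081). Of the 6 markers, 2 (Tat and Cps1) were called higher, where 2.6% of all genes were. Apob (0.057), Hnf4a (0.41) and Ttr (-0.088) were not called. The part of these markers in the results was not tested. Sums of the Kupffer cell, stellate, endothelial and cholangiocyte lists overlapped between the groups, and of their markers Col3a1 alone was called, lower. The adipocyte markers summed to 6.75 to 10.3 CPM with resmetirom and 16.2 to 21.8 CPM in control, without overlap. The skeletal muscle markers summed to 0.26 to 0.68 CPM with resmetirom and 0.047 to 0.54 CPM in control. Of 6 kidney markers 4 had no counts, and Miox was called higher, with sums of the list of 0.95 to 1.07 CPM with resmetirom and 0 to 0.049 CPM in control. In bulk tissue, fewer cells of a type and less RNA per cell cannot be told apart.

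The promoters of the 4 called members are shown first because these are the only members edgeR called. The letters are the 120 bases before the first annotated RefSeq start on GRCm38.p6, 5′ to 3′ on the strand of the gene. Capitals mark a CCAAT box (CCAAT), a nuclear receptor half-site (AGGTCA) or a motif of the factor NRF1 (GCGC, then A, any base and GCGC again), each searched on both strands.
Cpt1a, chr19:3323181-3323300, plus strand: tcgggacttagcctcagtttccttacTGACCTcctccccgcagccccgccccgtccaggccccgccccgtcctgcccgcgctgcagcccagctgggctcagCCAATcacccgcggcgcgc
Bdh1, chr16:31422177-31422296, plus strand: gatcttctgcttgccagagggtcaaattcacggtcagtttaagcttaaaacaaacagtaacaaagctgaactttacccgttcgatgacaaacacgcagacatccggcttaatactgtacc
Abcd3, chr3:121815303-121815422, minus strand: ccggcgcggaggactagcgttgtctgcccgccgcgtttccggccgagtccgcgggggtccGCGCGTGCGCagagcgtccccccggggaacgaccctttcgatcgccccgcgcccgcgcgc
Acsl1, chr8:46470917-46471036, plus strand: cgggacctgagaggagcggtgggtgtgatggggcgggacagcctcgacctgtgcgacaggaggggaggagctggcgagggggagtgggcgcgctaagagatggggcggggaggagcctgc
The 120 bases of Cpt1a, Acsl1 and Abcd3 were 73.3%, 71.7% and 78.3% G and C, and those of Bdh1 43.3%. GENCODE exons cover 16 of the bases shown for Cpt1a, 17 of those for Bdh1 and 0 of those for Abcd3 and Acsl1. The GENCODE gene Cpt1a starts at 3322334, upstream of the bases shown. Bdh1, Abcd3 and Acsl1 each have 2 RefSeq starts, and the windows of the other starts are not shown; that of Acsl1 holds a CCAAT box.

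RefSeq windows of 300 bases (250 before and 50 after a start) were read for 29 members (33 windows), and the other 5 are not shown. Of these, Acaa2 and Hsd17b4 lie on chromosome 18, which was left out, and the rest had no window in the set read. The half-site AGGTCA was in 24.2% of the member windows and in 16.3% of all 32851 windows. It was in 7 members: Cpt1a, Acadm, Acadvl, Echs1, Scp2, Acot3 and Acot4. Direct repeats of AGGTCA with 1 base between them (DR1, the form PPARalpha binds) or 4 bases between them (DR4, the form the thyroid hormone receptor binds) were in 0 member windows, against 0.0396% and 0.0152% of all windows. A looser DR1, with any base at the fourth place of each half-site, was also in 0 member windows, against 0.381%. With shares this low, 33 windows were too few to show a lack of these repeats in the members. The NRF1 motif was in 9.09% of member windows (Abcd3, Etfb and Etfdh) and 4.6% of all, and the CCAAT box in 48.5% and 37.4%. The member windows were also richer in G and C, with a median of 60.3% against 52.7% for all windows, and the part of base composition in these shares was not tested. The DR motifs contain the half-site, so these counts overlap. A match is a string of letters and no evidence of binding, and a missing match says only that the letters are not in this window.

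Entry into mitochondria held changes in both directions. Cpt1a encodes carnitine palmitoyltransferase 1A of the outer membrane, which makes the acylcarnitine and is the regulated step of entry (ENSMUSG00000024900, chromosome 19, 3322334 to 3385733, GRCm38). Its level was 670, 678, 585 and 648 CPM in the resmetirom libraries and 388, 530, 396 and 413 CPM in the control libraries. All resmetirom values lay above all control values, and the fitted ratio was 1.496-fold (log2 fold change 0.58, SE 0.11, adjusted p = 0.00916). Cpt1a was not called with library sizes only, at 0.28 (adjusted p = 0.155), nor in the authors' deposited table, at 0.098 (adjusted p = 0.391).

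Acsl1, which encodes the main long-chain acyl-CoA synthetase of liver and so activates fatty acids before entry, moved the other way (ENSMUSG00000018796, chromosome 8, 46471037 to 46536051). It was at 810, 695, 858 and 929 CPM with resmetirom and at 1212, 1281, 1099 and 1139 CPM in control. The groups did not overlap, at -0.52 (SE 0.10, adjusted p = 0.0114). Acsl1 was lower under each scaling, at -0.83 with library sizes only (adjusted p = 0.00099) and at -1.02 in the authors' deposited table (adjusted p = 6.25e-13). With the replicate number of the titles as a block its adjusted p was 0.0537. Exons of Gm45244 on the opposite strand cover 9.91% of the exonic bases of Acsl1, and whether the counting used strand is not stated, so reads of such pairs cannot be told apart. Acsl1 is also abundant in adipocytes, and the summed adipocyte markers, as given above, were lower in every resmetirom library than in any control library. Of those 6 markers, Fabp4 made up most of the sum and was called lower (log2 fold change -0.996, SE 0.17, adjusted p = 0.00413). Cfd had no counts in the resmetirom libraries and 0.273 to 1.68 CPM in the control libraries. Adipoq and Lep had no counts in any library, and Plin1 and Cidea were at 1.07 CPM or less. The part of these markers in the Acsl1 change was not tested.

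The log2 ratio of Cpt1a to Acsl1 counts is free of the library scale. It was -0.27, -0.035, -0.55 and -0.52 in the resmetirom libraries and -1.64, -1.27, -1.47 and -1.46 in the control libraries. The groups were apart by 1.12 in the mean, with no test since the pair was chosen after its values were seen. The ratio of Cpt1a to Cpt2, the inner membrane enzyme that turns acylcarnitine back into acyl-CoA, was likewise 1.48 to 1.88 with resmetirom and 0.869 to 1.40 in control.

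Slc25a20, the carrier that moves acylcarnitine across the inner membrane, was at 178, 186, 196 and 198 CPM with resmetirom and 157, 168, 154 and 148 CPM in control. Those groups did not overlap, but the change of 0.27 (SE 0.08, adjusted p = 0.0789) did not pass. DESeq2 called it (adjusted p = 0.0263). Cpt2 overlapped fully between the groups, with 182, 187, 210 and 210 CPM under resmetirom and 212, 215, 173 and 157 CPM in control, at 0.06 (SE 0.11). Of Cpt1a, Slc25a20 and Cpt2, which form the carnitine shuttle, the Cpt1a change alone passed the edgeR test. In log2(TPM + 1) Cpt2 was called lower, at -0.42 (adjusted p = 0.0364).

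**Figure D1:**
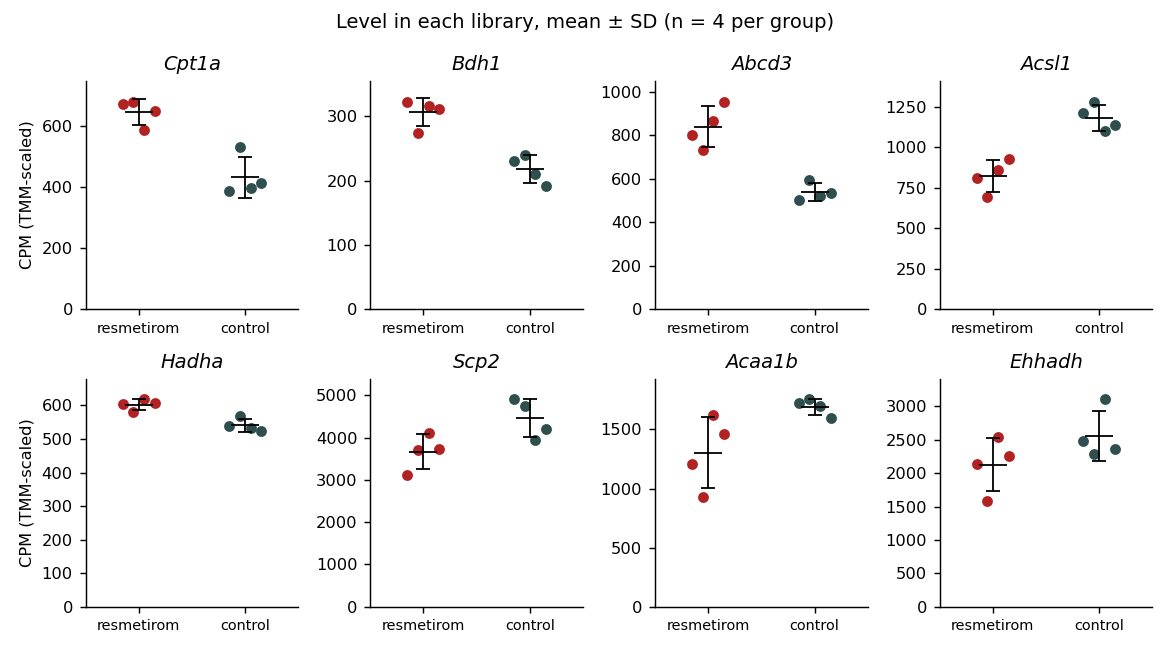
CPM (TMM-scaled) on the y axis in each of the 4 resmetirom and 4 control libraries for 8 members; points are libraries, and the bar and whiskers are mean and SD. Cpt1a, Bdh1 and Abcd3 lie higher and Acsl1 lower with resmetirom without overlap, Hadha is shifted slightly, and Scp2, Acaa1b and Ehhadh overlap between the groups.

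The 15 genes grouped here as the mitochondrial spiral, its steps for unsaturated chains and its electron transfer stayed close together. Their log2 fold changes ran from -0.10 to 0.37 with a median of 0.16. EdgeR called 0 of 15 higher or lower, where 2.6% and 1.99% of all genes were called. At an unadjusted p under 0.05, 7 were higher and 0 lower, where 9.48% of all genes were higher and 8.36% lower. DESeq2 called 1 higher (Etfb) and 0 lower, against 4.36% and 3.37% of all genes. On the TMM scale 6 of 15 had all resmetirom libraries above all control libraries and 0 had them below, against 6.32% and 5.5% of all genes. By library size alone 0 were above and 1 below (Acadm), against 1.26% and 22.7%. In TPM 0 were above and 4 below, against 0.811% and 32.4%, and the median of the 15 turned to -0.14 with library sizes only and -0.34 for log2(TPM + 1). The standard deviation of the log2 fold change was 0.11 over these 15 genes, 0.42 over the 13 peroxisomal genes and 0.61 over all genes tested. These sets are unlike, since the 15 leave out the entry genes and the 13 include import and other steps. It was 0.47 over the 4 entry and carnitine shuttle genes and 0.27 over the 5 peroxisomal beta-oxidation genes. Such a spread also holds the error of each estimate, which among the members was largest for Acot3 (SE 0.65).

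The acyl-CoA dehydrogenases open each round, and their family members differ in chain length. Acadm, for medium chains, the most abundant of the 4 in TPM (507 ± 74.6 TPM with resmetirom and 770 ± 23.6 TPM in control, SD, n = 4 each), was at 676, 762, 778 and 936 CPM with resmetirom and at 879, 904, 799 and 800 CPM in control. The groups overlapped, at -0.10 (SE 0.11, adjusted p = 0.698), although library sizes only gave -0.42 (adjusted p = 0.0244). Acadl, for long chains, was at 392, 383, 383 and 422 CPM with resmetirom against 315, 372, 330 and 315 CPM in control. It did not overlap and was not called, at 0.25 (SE 0.08, adjusted p = 0.14). Acads, for short chains, was at 169, 169, 180 and 171 CPM with resmetirom and 184, 203, 154 and 144 CPM in control, with the control libraries on both sides of the others. Its change was 0.01 (SE 0.11, adjusted p = 0.978), and -0.48 in log2(TPM + 1) (adjusted p = 0.027). Acadvl, for very long chains, had 608 ± 23.0 CPM with resmetirom and 548 ± 36.9 CPM in control (SD, n = 4 each), with overlapping groups and a change of 0.15 (SE 0.08). For Acadvl, 42.9% of the exonic bases are shared with Dvl2 on the opposite strand.

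Hadha and Hadhb encode the subunits of the trifunctional protein, which carries out the 3 later steps on long chains. They lie head to head on chromosome 5, and the sequence between them is shown because their starts face each other across it. These are the 85 bases between their outermost annotated exons, on the plus strand of GRCm38.p6, with Hadha to the left and Hadhb to the right, and no searched motif in them.
Hadha-Hadhb, chr5:30155163-30155247: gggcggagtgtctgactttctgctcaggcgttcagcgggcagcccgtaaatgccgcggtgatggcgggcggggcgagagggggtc
Hadha was at 606, 580, 618 and 606 CPM in the resmetirom libraries and 540, 567, 532 and 524 CPM in the control libraries. Hadhb was at 518, 524, 588 and 563 CPM with resmetirom and at 467, 506, 470 and 455 CPM in control. Both genes were separated between the groups, with changes of 0.15 for Hadha (SE 0.07, adjusted p = 0.316) and 0.21 for Hadhb (SE 0.08, adjusted p = 0.197), and neither was called. The log2 ratio of Hadha to Hadhb counts was 0.072 to 0.224 with resmetirom and 0.165 to 0.208 in control, so the ranges overlapped. Of the 100-base windows of Hadhb transcripts, 14.8% also occur in Gm13910.

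Hadh, the dehydrogenase for shorter chains, Echs1, the hydratase for short chains, and Acaa2, the mitochondrial thiolase, had changes of 0.19, 0.16 and 0.14 (SE 0.08, 0.10 and 0.10). With Hadha and Hadhb, the 5 genes of the hydratase, dehydrogenase and thiolase steps thus spanned 0.14 to 0.21 and none was called. Hadh was at 396, 414, 424 and 438 CPM with resmetirom and 372, 395, 353 and 349 CPM in control, and alone of these 3 did not overlap. Acaa2 was at 998, 1078, 1192 and 1109 CPM with resmetirom and 1044, 1107, 911 and 913 CPM in control. The genes for unsaturated chains are the enoyl-CoA isomerases Eci1 and Eci2 and the reductase Decr1. They had changes of 0.05, 0.16 and 0.25, and all 3 overlapped between the groups. Eci1 was at 157, 159, 171 and 173 CPM with resmetirom and 180, 171, 142 and 144 CPM in control, and was called lower in log2(TPM + 1), at -0.44 (adjusted p = 0.0294), and in the authors' deposited table (adjusted p = 0.00927).

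Etfb and Etfa had the highest fitted changes of the 15. Etfb, the beta subunit of the flavoprotein that takes electrons from the acyl-CoA dehydrogenases, was at 287, 307, 305 and 344 CPM with resmetirom and 253, 267, 230 and 212 CPM in control. The groups were separate and the change was 0.37 (SE 0.10, adjusted p = 0.0503), at the edge of the threshold. Etfb passed with DESeq2 (adjusted p = 0.0162), limma-voom (adjusted p = 0.0475), upper-quartile factors (adjusted p = 0.0418), a filter of 1 CPM in 4 libraries (adjusted p = 0.0496) and without control replicate 2 (adjusted p = 0.041). Over all alternatives its adjusted p ran from 0.0162 to 0.698. In the annotation Gm45233 and Mir7051 cover 58.3% of its exonic bases on the same strand. Etfa, the alpha subunit, was at 380, 411, 454 and 470 CPM with resmetirom and 365, 369, 350 and 341 CPM in control, separate and not called at 0.27 (SE 0.09, adjusted p = 0.125). Etfdh, which passes the electrons on to ubiquinone, overlapped at 0.23 (SE 0.09).

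**Figure D2:**
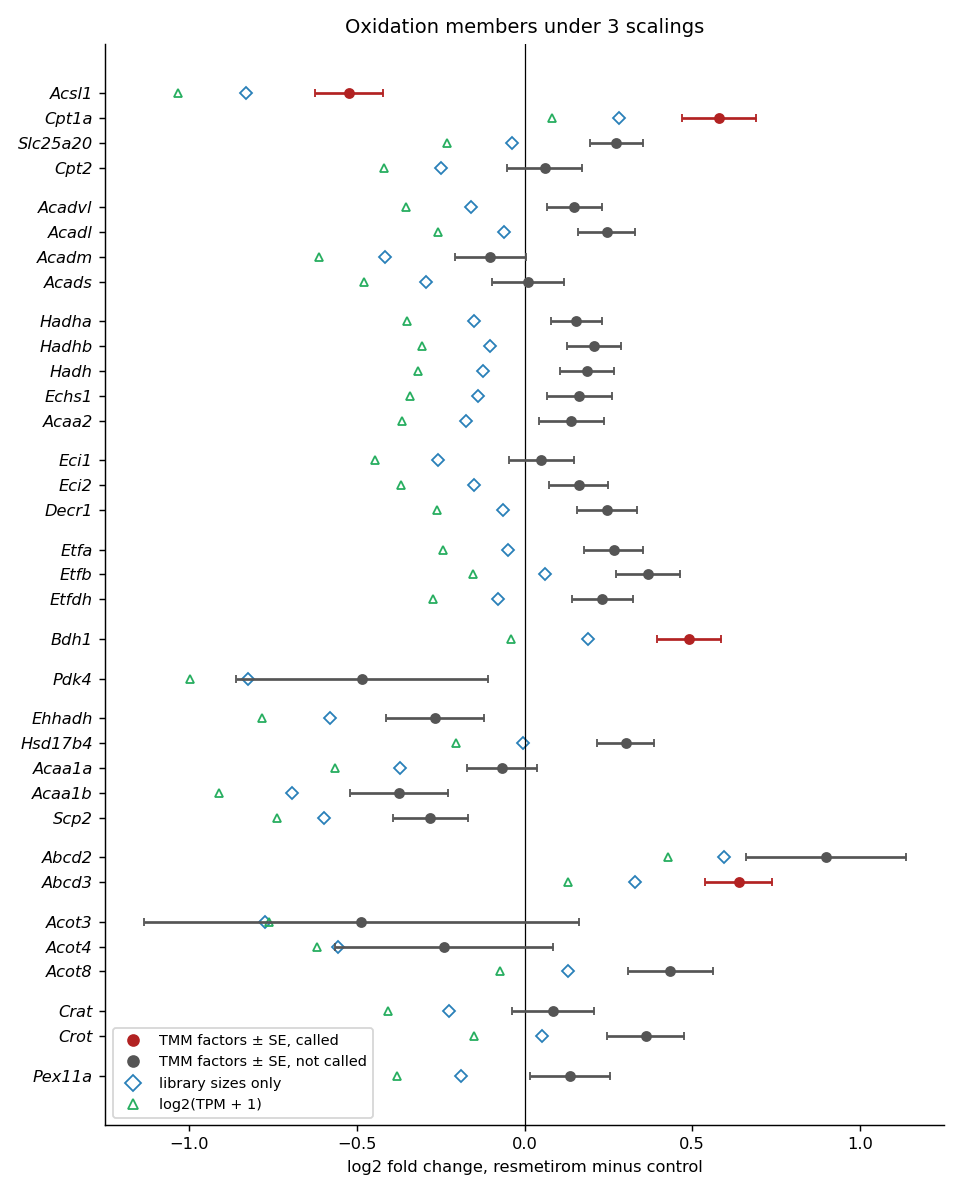
Log2 fold change, resmetirom minus control, on the x axis for each of the 34 members on the y axis in blocks by role; filled circles with SE bars are the edgeR estimates with TMM factors (red where called), open diamonds use library sizes only and open triangles log2(TPM + 1). The open symbols lie to the left of the circles, and the genes of the mitochondrial spiral, from Acadvl to Etfdh, form a narrow column while the peroxisomal genes from Ehhadh to Pex11a spread to both sides.

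Of the ketone body step, Bdh1 rose. It encodes the mitochondrial 3-hydroxybutyrate dehydrogenase, which turns acetoacetate into 3-hydroxybutyrate (ENSMUSG00000046598, chromosome 16, 31422280 to 31458901). It was at 323, 275, 317 and 312 CPM in the resmetirom libraries and 231, 240, 211 and 191 CPM in the control libraries. The groups did not overlap, and the change was 0.49 (SE 0.09, adjusted p = 0.0106), or 1.40-fold. When scaled by library size alone it was 0.19 (adjusted p = 0.271), and in the authors' deposited table it was -0.018 (adjusted p = 0.761). Gm15743 covers 13.7% of the exonic bases of Bdh1 on the opposite strand.

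Beside it, 6 other genes of ketone body metabolism were read, with a median of 0.197. Of these, 0 were called higher and 1 lower, where 2.6% and 1.99% of all genes were called. At an unadjusted p under 0.05 there was 1 higher and 1 lower, and DESeq2 called 1 higher and 1 lower, with the shares of all genes as given for the spiral and for DESeq2 above. Acat1, the mitochondrial acetoacetyl-CoA thiolase, was close to the threshold at 0.31 (SE 0.08, adjusted p = 0.0513). The called gene was Bdh2, a cytosolic dehydrogenase of another family, with 0.39 to 1.56 CPM under resmetirom and 2.70 to 5.98 CPM in control (log2 fold change -2.22, SE 0.45, adjusted p = 0.014). Without control replicate 4 Bdh2 was not called (adjusted p = 0.0595).

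Pdk4 encodes a kinase that switches off pyruvate dehydrogenase and so spares glucose when fat is burned. It was at 27.1, 17.5, 56.3 and 34.02 CPM with resmetirom and 57.8, 28.0, 53.1 and 49.6 CPM in control. The libraries of each group were far apart and the groups overlapped, at -0.48 (SE 0.38, adjusted p = 0.597), while the log2(TPM + 1) scale gave -0.997 (adjusted p = 0.0273). Among 18 further genes of mitochondrial oxidation, of which 17 were tested, 1 was higher and 1 lower and the median was -0.0054, where 2.6% and 1.99% of all genes were called. At an unadjusted p under 0.05, 2 were higher and 4 lower, against 9.48% and 8.36% of all genes, and DESeq2 called 2 higher and 2 lower, against 4.36% and 3.37%. Acsl5, another acyl-CoA synthetase, rose by 0.46 (SE 0.09, adjusted p = 0.00916), with 374 to 423 CPM under resmetirom and 265 to 321 CPM in control. When scaled by library size alone Acsl5 was at 0.15 (adjusted p = 0.315). Cpt1b, the muscle form of the outer membrane transferase, was lower, at 3.12 to 5.13 CPM with resmetirom and 6.29 to 9.81 CPM in control (log2 fold change -1.003, SE 0.22, adjusted p = 0.0205). The call of Cpt1b was lost without resmetirom replicate 2 or 4 or control replicate 3 or 4 (adjusted p = 0.0599 to 0.0726) and with the replicate block (adjusted p = 0.0747). Of the 6 skeletal muscle markers, Acta1, Tnnt3 and Myh4 had no counts in any library. Mylpf was at 0.13 to 0.451 CPM with resmetirom and 0.047 to 0.363 CPM in control, and Actn3 and Ckm had counts in some libraries, at 0.445 CPM or less. The sums of the list, given above, overlapped between the groups, and their part in the Cpt1b change was not tested.

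The peroxisomal genes, which include import and other steps, were spread more widely than those of the mitochondrial spiral, by the standard deviations above. Of 13, 1 rose and 0 fell, where 2.6% and 1.99% of all genes were called. At an unadjusted p under 0.05, 5 were higher and 2 lower (9.48% and 8.36% of all genes), and DESeq2 called 4 higher and 0 lower (4.36% and 3.37% of all genes). The changes of the 13 ran from -0.49 to 0.90 with a median of 0.085, which was -0.23 with library sizes only and -0.41 for log2(TPM + 1). Import was the highest. Abcd3 encodes the most abundant transporter that brings acyl chains and bile acid precursors into peroxisomes (ENSMUSG00000028127, chromosome 3, 121758774 to 121815302). It was at 802, 733, 865 and 953 CPM with resmetirom against 503, 596, 519 and 536 CPM in control. Without overlap, the change was 0.64 (SE 0.10, adjusted p = 0.00282), or 1.56-fold, and 0.33 when scaled by library size alone (adjusted p = 0.0734). The authors' deposited table gives 0.14 (adjusted p = 0.132).

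Abcd2, a related transporter for very long and polyunsaturated chains, was at 99.2, 84.2, 80.4 and 73.9 CPM in the resmetirom libraries and 24.7, 43.7, 59.3 and 53.2 CPM in the control libraries. The groups did not overlap and its fitted change was the highest of the 34, at 0.90 (SE 0.24), but it was not called (adjusted p = 0.0746). Control replicate 1 was the lowest library, and without it the change was 0.70 (adjusted p = 0.0127). DESeq2 called Abcd2 with all libraries (adjusted p = 0.00189).

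The enzymes of the peroxisomal spiral lay mostly below 0 on the TMM scale. Scp2, whose longer product is the thiolase for branched chains and whose shorter one binds sterols and lipids, was the most abundant of the 34 in both groups, at 2756 ± 240 TPM with resmetirom and 4590 ± 300 TPM in control (SD, n = 4 each). On the TMM scale it was at 3114, 3711, 4102 and 3729 CPM with resmetirom and at 4900, 4748, 3946 and 4213 CPM in control. The groups overlapped through resmetirom replicate 3 and control replicate 3, at -0.28 (SE 0.11, adjusted p = 0.202). Library sizes alone gave Scp2 a call, at -0.60 (adjusted p = 0.00315). Of the 100-base windows of Scp2 transcripts, 21.8% are also in the pseudogene Scp2-ps2.

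Acaa1b and Acaa1a encode a pair of near-identical peroxisomal thiolases on chromosome 9, 182.6 kb apart. Acaa1b was at 1207, 929, 1621 and 1462 CPM with resmetirom and 1724, 1754, 1696 and 1596 CPM in control. Resmetirom replicate 3 reached into the control range, and the change was -0.38 (SE 0.15, adjusted p = 0.198), or -0.69 when scaled by library size alone (adjusted p = 0.00802). Acaa1a was at 241, 274, 222 and 261 CPM with resmetirom and 233, 308, 251 and 252 CPM in control. The groups of Acaa1a overlapped, at -0.07 (SE 0.10), and it was called lower in log2(TPM + 1) at -0.57 (adjusted p = 0.0204). The log2 ratio of Acaa1b to Acaa1a counts was 1.76 to 2.87 with resmetirom and 2.51 to 2.89 in control. Of the 100-base windows, 19.3% of Acaa1b and 7.21% of Acaa1a occur in the other gene, so reads could be split between them by the counting.

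Ehhadh, the bifunctional enzyme that is known for strong induction by PPARalpha agonists, was at 2138, 1584, 2535 and 2252 CPM with resmetirom and 2480, 2294, 3103 and 2356 CPM in control. The groups overlapped, at -0.27 (SE 0.15, adjusted p = 0.385), and -0.58 when scaled by library size alone (adjusted p = 0.0263). Hsd17b4, the other bifunctional enzyme, which serves branched chains and bile acid precursors, was at 847, 835, 876 and 968 CPM with resmetirom and 770, 726, 691 and 673 CPM in control. It was separate between the groups and not called, at 0.30 (SE 0.09, adjusted p = 0.0732), and DESeq2 called it (adjusted p = 0.017). Among the bifunctional enzymes, then, the values lay on opposite sides of 0 on the TMM scale (both were below 0 with library sizes only), and the difference between them was not tested.

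**Figure D3:**
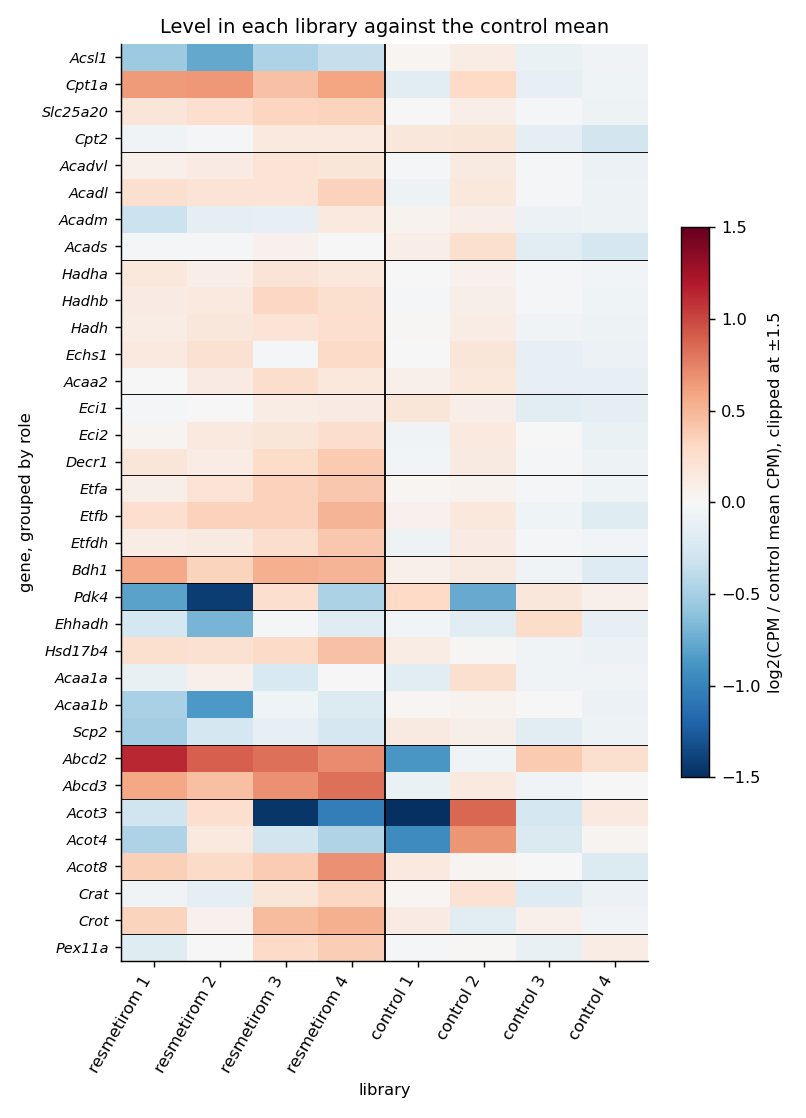
Log2 of the CPM in each library over the mean control CPM, resmetirom libraries to the left and control libraries to the right on the x axis, with members on the y axis in blocks by role and colours clipped at 1.5. Cpt1a, Bdh1, Abcd2 and Abcd3 are red in all 4 resmetirom libraries and Acsl1 blue, the mitochondrial spiral is pale, and Pdk4, Acot3 and Acot4 differ among libraries of the same group.

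Of the thioesterases, which release the free acid from acyl-CoA, Acot3 and Acot4 differed widely among libraries of the same group. They lie 3.5 kb apart on chromosome 12. Acot3 was at 74.3, 109, 33.4 and 44.5 CPM with resmetirom and 22.2, 166, 76.2 and 102 CPM in control, so that its highest control library had 7.47 times the lowest. Acot4 was at 106, 162, 121 and 108 CPM with resmetirom and 76.6, 233, 126 and 152 CPM in control. In both genes control replicate 1 was the lowest and control replicate 2 the highest of the control group, and the groups overlapped, at -0.49 (SE 0.65) for Acot3 and -0.24 (SE 0.32) for Acot4. Of the 100-base windows of Acot3, 13.8% are in other genes. Acot8 was lowly expressed, at 19.6, 18.7, 20.04 and 24.6 CPM with resmetirom and 17.0, 15.7, 15.3 and 13.3 CPM in control. It was separate between the groups and not called, at 0.43 (SE 0.13, adjusted p = 0.0799), and DESeq2 called it (adjusted p = 0.0383).

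Crot and Crat make the carnitine esters that leave the peroxisome. Crot, for medium chains, was at 1802, 1501, 1992 and 2065 CPM with resmetirom and 1565, 1273, 1516 and 1376 CPM in control. Resmetirom replicate 2 fell within the control range, and the change was 0.36 (SE 0.12, adjusted p = 0.11), or 0.45 without that library (adjusted p = 0.0433). Crat, for short chains, was at 126, 117, 148 and 162 CPM with resmetirom and 133, 152, 114 and 123 CPM in control, at 0.09 (SE 0.12). Pex11a, which helps peroxisomes divide, was at 159, 180, 221 and 233 CPM with resmetirom and 177, 182, 167 and 194 CPM in control, at 0.14 (SE 0.12). Both overlapped between the groups, and both were called lower in log2(TPM + 1), as in the authors' deposited table (in log2(TPM + 1), -0.41 with adjusted p = 0.0439 for Crat and -0.38 with adjusted p = 0.0455 for Pex11a).

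A ratio of peroxisomal to mitochondrial genes can be taken within a library, where the scale cancels. The TPM of 5 peroxisomal beta-oxidation genes (Ehhadh, Hsd17b4, Acaa1a, Acaa1b and Scp2), divided by that of the 15 mitochondrial genes, was 1.0004, 0.928, 1.11 and 0.999 in the resmetirom libraries and 1.37, 1.24, 1.35 and 1.33 in the control libraries. All resmetirom ratios lay below all control ratios. Scp2 made up most of the peroxisomal sum, at a mean of 2756 of 5336 TPM with resmetirom and 4590 of 8832 TPM in control. The ratio therefore leans on Scp2, and among the 5 genes Hsd17b4 alone lay above 0 on the TMM scale, at 0.30. The ratio is given without a test because its genes were chosen with results known. When the library scale was instead taken from the 15 mitochondrial genes, an alternative chosen after seeing the data, Cpt1a (0.42, adjusted p = 0.0311), Bdh1 (0.33, adjusted p = 0.0492) and Abcd3 (0.47, adjusted p = 0.00727) were called higher. With the same scale Acsl1 (-0.69, adjusted p = 0.000733), Scp2 (-0.45, adjusted p = 0.0162) and Acaa1b (-0.55, adjusted p = 0.0301) were called lower. On that scale 1.59% of all genes were called higher and 4.21% lower. The scale fixes the average change of the 15 by construction, and the other members lay lower on it than on the TMM scale. These calls are therefore no test of the ratio. The log2 ratio of Abcd3 to Ehhadh counts was -1.55 to -1.11 with resmetirom and -2.58 to -1.94 in control.

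**Figure D4:**
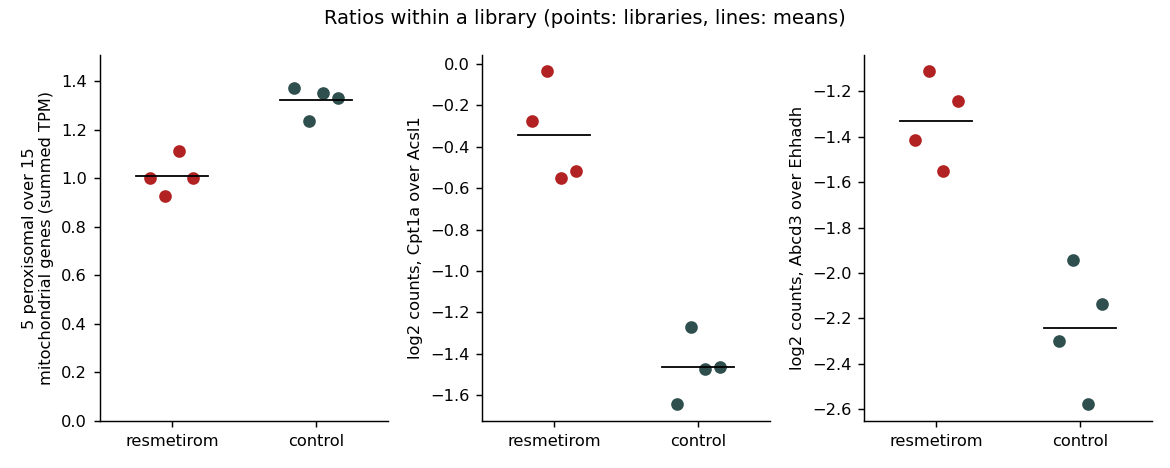
Ratios taken within each library, resmetirom to the left of control; points are libraries and lines are means. The peroxisomal to mitochondrial ratio of summed TPM (left, from 0) is lower in the 4 resmetirom libraries, and the log2 count ratios of Cpt1a to Acsl1 (middle) and of Abcd3 to Ehhadh (right) are higher, with no overlap in any of the 3.

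Of 18 other peroxisomal oxidation genes, 16 were tested, with a median of 0.0015. In the edgeR test 1 was called higher and 0 lower, where 2.6% and 1.99% of all genes were called. At an unadjusted p under 0.05, 4 were higher and 1 lower, against 9.48% and 8.36% of all genes. DESeq2 called 1 and 0, against 4.36% and 3.37%. Hacl1, the lyase that splits chains after alpha-oxidation, rose by 0.63 (SE 0.11, adjusted p = 0.00619), at 336 to 374 CPM with resmetirom and 191 to 281 CPM in control, and was at 0.33 with library sizes only (adjusted p = 0.102). Of 15 peroxins, which build peroxisomes, edgeR and DESeq2 called 0 in either direction, and the median was 0.064. Of all genes, edgeR called 2.6% higher and 1.99% lower, and DESeq2 called 4.36% and 3.37%. At an unadjusted p under 0.05, 3 peroxins were higher and 0 lower, against 9.48% and 8.36% of all genes.

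Of 19 genes for PPARalpha, its cofactors and its targets, 3 were called higher and 0 lower, with a median of 0.24, where 2.6% and 1.99% of all genes were called. At an unadjusted p under 0.05, 6 were higher and 1 lower, against 9.48% and 8.36% of all genes, and DESeq2 called 5 and 0, against 4.36% and 3.37%. Ppara itself was at 44.4, 46.2, 63.3 and 56.0 CPM with resmetirom and 52.8, 66.2, 56.3 and 68.5 CPM in control, overlapping at -0.22 (SE 0.13, adjusted p = 0.451), and at -0.54 when scaled by library size alone (adjusted p = 0.0151). Ppargc1a, a coactivator of oxidation genes, was at 6.99, 14.5, 3.46 and 6.78 CPM with resmetirom and 4.84, 6.68, 7.68 and 7.61 CPM in control, at 0.24 (SE 0.36, adjusted p = 0.809). The 3 called genes were Rxra, the partner receptor (0.34, SE 0.08, adjusted p = 0.0384), the omega-hydroxylase Cyp4a14 (0.46, SE 0.11, adjusted p = 0.0311) and the fatty acid binding protein Fabp1 (0.49, SE 0.11, adjusted p = 0.0205). With library sizes only none of the 3 was called (adjusted p = 0.873 for Rxra, 0.412 for Cyp4a14 and 0.274 for Fabp1). Rxra was not called when any 1 of the 8 libraries was left out (adjusted p = 0.052 to 0.112). Cyp4a14 was not called without resmetirom replicate 1, 2 or 4 or control replicate 1 or 4 (adjusted p = 0.0531 to 0.111). Fabp1 was not called without resmetirom replicate 3 or 4 or control replicate 2 or 4 (adjusted p = 0.0523 to 0.0821).

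Levels per gene length ordered the members in much the same way in both groups. By mean TPM, Scp2, Acaa1b, Ehhadh and Acaa2 were the 4 highest in both groups, with Acaa1b at 1013 ± 223 TPM with resmetirom and 1866 ± 45.1 TPM in control. Ehhadh had 943 ± 219 TPM with resmetirom and 1603 ± 265 TPM in control, and Acaa2 had 949 ± 104 TPM with resmetirom and 1219 ± 75.2 TPM in control (SD, n = 4 each), so that with resmetirom Ehhadh and Acaa2 did not differ beyond their spread. Pdk4, Acot8 and Abcd2 were the 3 lowest in both groups. Their means were 12.4, 23.9 and 20.6 TPM with resmetirom and 25.3, 24.9 and 15.4 TPM in control. Acsl1 was the 15th with resmetirom and the 8th in control. The median coefficient of variation over the members was 9.25% in the resmetirom libraries and 9.38% in the control libraries.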

How the data were processed

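Poly(A)-selected mouse liver RNA was sequenced in 8 libraries on either of 2 instrument types (Illumina Novaseq X Plus, MGI DNBSEQ-T7), per the labels' protocols; the labels do not say which library ran on which, so an instrument batch cannot be told apart. Per the submitters' processing notes, the tools were RSEM, edgeR, DESeq2, StringTie 1.3.1, HISAT2 2.1.0, Bowtie2 2.2.8 and fastp 0.18.0 and the build mm10, with no role or order. The authors deposited whole-number counts per gene, per the file headers, and TPM values, which sum to the same total in every library, so that other genes shift when abundant ones change. The authors' table also holds a log2 fold change, which equals the ratio of the TPM group means, and p-values with adjusted p-values from a tool the sources do not name. Columns were assigned to libraries by name, with 0 left unmatched.

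The test of counts was that of edgeR 4.0.16, run in R 4.3.3 (filterByExpr, TMM factors, robust quasi-likelihood fit and F test), with Benjamini-Hochberg adjustment over 12207 genes and calls at an adjusted p under 0.05. Each log2 fold change is resmetirom minus control, and its SE is the change over the square root of F. DESeq2 1.42.0, limma 3.58.1 and other scalings and filters were alternatives. On counts simulated for this comparison (12081 genes in the step, 50 changed at each fold) recovery was 28% for a fold of 1.5, 76% for a fold of 2, 98% for a fold of 4 and 100% for a fold of 8; 12 of 163 calls were false. The changed genes were drawn at random from genes of low and high counts, with the same base levels in both groups. These shares are therefore not the recovery of the members themselves. Most members changed by less than 1.5-fold, and members not called may still differ.

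The members and lists were chosen with earlier results of these data known. Each member, Eci2 and Crat included, was placed in a single group by role, also where its product may be found in both organelles. Values per library were given for each member called, each called by another tool or scaling, each with separate groups, and 10 fixed members; some genes of the lists are not reported here. Marker lists covered hepatocytes, adipocytes, muscle, Kupffer, stellate and endothelial cells, cholangiocytes and kidney. Gene positions and exon overlaps are from GENCODE M21 on GRCm38 (mm10), promoters from RefSeq on GRCm38.p6, with chromosome 18 left out.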

Additional observations from a re-analysis of the deposited data

How the results depend on the processing

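The 4 called members kept their direction under all 21 alternatives except Bdh1, which turned on the TPM scale, and kept their call in all 8 fits that left out 1 library. Normalisation by library sizes only called 151 genes higher and 1961 lower over all genes, and 0 and 5 among the members. DESeq2 called 532 and 411, and 8 members higher. The log2(TPM + 1) scale gave 123 and 4648, with 0 and 12 members, and log2(TPM + 0.1) gave 122 and 4608, with 0 and 13 members. A library scale taken from the 15 mitochondrial genes, chosen after seeing the data, gave 194 and 514, with 3 members lower. Leaving out 1 library gave 182 to 313 genes higher and 149 to 238 lower, and 3 to 4 members higher and 1 to 1 lower; the lowest counts, 182 and 149, came without control replicate 4. Without resmetirom replicate 4 there were 208 higher and 161 lower. RLE and upper-quartile factors, limma-voom, the other filters and no robust estimation kept each of the 4 counts within 1.5 times. The cause of these differences was not tested.

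With the replicate number of the titles as a block, 3 members were called higher and 0 lower, since Acsl1 was at -0.53 (adjusted p = 0.0537); Cpt1b, Rxra, Cyp4a14 and Fabp1 also lost their calls (adjusted p = 0.0747, 0.12, 0.0927 and 0.063). The labels do not say that a number pairs samples, and same-numbered libraries did not deviate together (correlations of -0.34, 0.21, -0.21 and -0.086, with 1 of 4 libraries best matched by its own number).

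Log2 fold changes (resmetirom minus control) that turned sign with library sizes only were Slc25a20 -0.037, Cpt2 -0.25, Acadvl -0.16, Acadl -0.0597, Acads -0.29, Hadha -0.15, Hadhb -0.10, Hadh -0.12, Echs1 -0.14, Acaa2 -0.17, Eci1 -0.26, Eci2 -0.15, Decr1 -0.063, Etfa -0.049, Etfdh -0.0797, Hsd17b4 -0.0054, Crat -0.23, Pex11a -0.19 and Ppargc1a -0.067. On both TPM scales, the values that turned were, for log2(TPM + 1), Slc25a20 -0.23, Cpt2 -0.42, Acadvl -0.35, Acadl -0.26, Acads -0.48, Hadha -0.35, Hadhb -0.31, Hadh -0.32, Echs1 -0.34, Acaa2 -0.36, Eci1 -0.44, Eci2 -0.37, Decr1 -0.26, Etfa -0.24, Etfb -0.15, Etfdh -0.27, Bdh1 -0.0397, Hsd17b4 -0.20, Acot8 -0.073, Crat -0.41, Crot -0.15, Pex11a -0.38, Ppargc1a -0.20, Acsl5 -0.038, Rxra -0.14, Cyp4a14 -0.036 and Fabp1 -0.015, and the same to 2 decimals for log2(TPM + 0.1) except Bdh1 -0.040, Eci1 -0.45, Acot8 -0.077, Ppargc1a -0.37. With the scale of the 15 mitochondrial genes, those that turned were Cpt2 -0.10, Acadvl -0.015, Acads -0.15, Hadha -0.010, Acaa2 -0.024, Eci1 -0.11, Eci2 -0.0046, Crat -0.081 and Pex11a -0.041. That scale fixes the average change of the 15 by construction. The turns of Acadvl, Acads, Hadha, Acaa2, Eci1 and Eci2, which are among them, are therefore no separate result. Leaving out 1 library turned 6 genes: Cpt2 (-0.021 to 0.13), Acads (-0.064 to 0.10), Eci1 (-0.001 to 0.11), Acaa1a (-0.12 to 0.022), Acot4 (-0.45 to 0.074) and Ppargc1a (-0.22 to 0.49), given as the range over the 8 fits. With 4 libraries a group, depth and number limit what can be seen, and members not called may still differ. The simulated recovery of 28% at 1.5-fold is for randomly drawn genes and not for these members, of which Bdh1 was called at 1.40-fold.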
